A study of Mus musculus with 6 samples.

Results

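The genes described here are 10 genes of calcium cycling at the sarcoplasmic reticulum, Ryr2, Atp2a2, Pln, Sln, Slc8a1, Cacna1c, Casq2, Trdn, Jph2 and Asph, chosen by symbol from the 23284 genes listed in the table that the authors deposited. RNA-seq was performed on heart ventricles of embryos labelled as strain C57BL/6 at embryonic day (E) 9.5, in 2 groups of 3 embryos labelled WT (wild type) and KD (genotype Tbx5ua -/-). All embryos of both groups were tetraploid chimeras, in which the embryo proper grows from the injected ES cells. The KD ES cells, derived from C57BL/6J, were edited with CRISPR/Cas9 and carry tandem polyadenylation signals in both alleles of Tbx5ua, the lncRNA transcribed divergently from Tbx5, so that its transcription ends early, and they were picked as single colonies. The labels do not say which ES cell line gave which embryo. Libraries were made by the Smart-Seq2 protocol, which amplifies full-length cDNA by PCR, from 10 ng of total RNA.

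In the beating heart, calcium enters a cardiomyocyte through the L-type channel and triggers a larger release from the sarcoplasmic reticulum through the ryanodine receptor. The SERCA pump then returns calcium to the reticulum, under the brake of small membrane proteins such as phospholamban and sarcolipin, and the sodium-calcium exchanger carries the rest out of the cell. Calsequestrin, triadin and junctin hold calcium inside the reticulum close to the release channel, and junctophilin ties the reticulum to the surface membrane. At this stage the heart tube already contracts while its reticulum is still immature, and calcium handling is one of the features by which a working myocardium is recognised.

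The table gives each group a single FPKM value per gene (fragments mapped to the gene, scaled to transcript length and to all mapped fragments). It gives no value for single embryos and no read counts. Each value below is therefore the authors' group value without SD, the difference between the groups has no replicate check and no p-value is given, and the depth of the libraries is unknown. Ratios are KD over WT. Fewer cells of a type and less RNA per cell cannot be told apart in tissue of this kind. Summed over all genes, the WT values came to 859452 FPKM and the KD values to 877889 FPKM. At least 1 FPKM in both groups was reached by 11001 genes, with a median log2 ratio of 0.00. The ventricular myocardium was recognised by its markers in both groups, with Tnnt2, a thin filament gene, at 1842 FPKM in WT and 1807 in KD. Myl2, the ventricular light chain gene, stood at 10924 and 12702 FPKM and Irx4, a ventricular transcription factor gene, at 31.8 and 27.6 FPKM. Myh6, Myh7 and Myl7, further genes of the contractile apparatus, stood at 284, 469.9 and 13643 FPKM in WT and at 239, 500.4 and 12907 FPKM in KD. Tbx5 stood at 17.2 FPKM in WT and 15.7 in KD. The targeted lncRNA was not analysed here, and the group labels were not checked against it. The skeletal muscle factors Myod1, Myf5, Myog and Myf6 were listed at 0 in both groups.

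Of the 10 calcium cycling genes, 9 reached 1 FPKM in both groups and 1, Sln, was listed at 0 in both. The 1 gene past 1.5-fold was Pln, with 104 FPKM in WT and 183 in KD. The other 8 genes lay within 1.5-fold of their WT value, 4 above it (Casq2, Trdn, Jph2 and Asph) and 4 below it (Ryr2, Atp2a2, Slc8a1 and Cacna1c). A ratio of 1.5 or more in either direction was thus found in 1 of 9 genes, beside 5.01% of the 11001 genes, and with so few members this count says little about them as a group. The median log2 ratio of the 9 genes was 0.15. It was 0.026 without Pln and -0.10 over the 5 genes whose table entry shares its locus with no other gene, so the median has no stable sign.

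**Figure D1:**
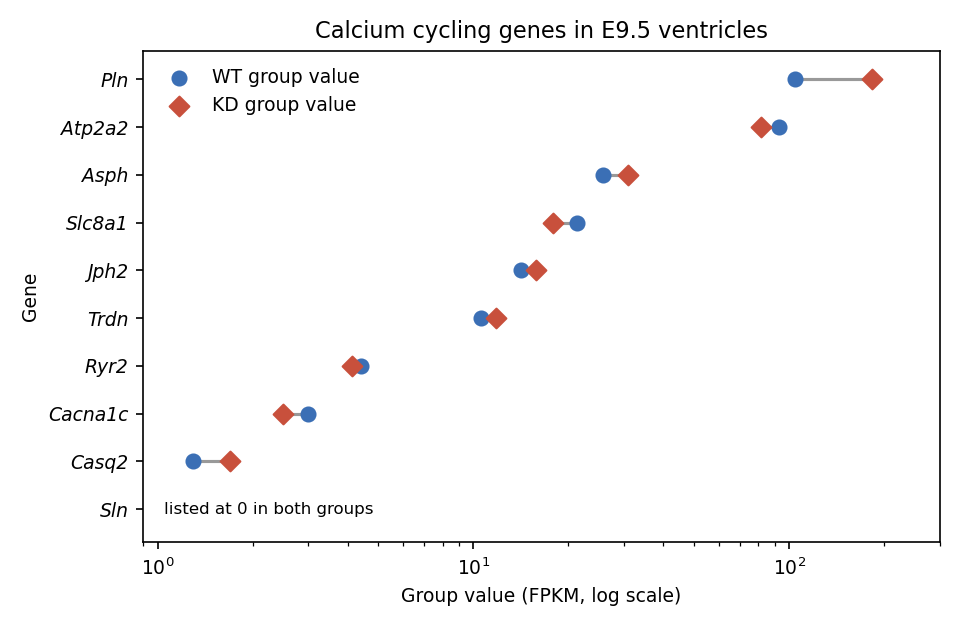
Group values of the calcium cycling genes in FPKM on a log axis, with a circle for WT and a diamond for KD joined by a line, genes ordered by WT value and no error bars because the table holds 1 value a group. Pln lies at 104 FPKM in WT and 183 in KD, the other genes above 0 keep their places in the order, and Sln is listed at 0 in both groups.

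Expression of the members covered a wide range, and the genes were set beside each other because FPKM is scaled to transcript length. How well each transcript was recovered in these amplified libraries was not measured. The order of the genes, and every ratio between 2 genes below, is therefore approximate. In WT the order from the highest was Pln, Atp2a2, Asph, Slc8a1, Jph2, Trdn, Ryr2, Cacna1c and Casq2, from 104 FPKM down to 1.29 FPKM. The order was the same in KD, from 183 FPKM down to 1.69 FPKM. Whether neighbours in this order, such as Pln and Atp2a2 in WT, differ beyond the spread between embryos cannot be told from group values.

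Pln encodes phospholamban, the small membrane protein that slows the cardiac SERCA pump until it is phosphorylated. Its group value was 104 FPKM in WT and 183 in KD, a difference of 78.9 FPKM, a ratio of 1.76 and a log2 ratio of 0.81. From the top, this was the 132nd ratio of the 11001 genes. A ratio of 1.5 or more was found in 2.99% of these genes.

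The locus listed for Pln in the table covers more than Pln, while each gene of that locus has its own value. The gene lies at chr10:53337667-53345987 on the plus strand (GRCm38, GENCODE M21), inside Cep85l, a protein-coding gene annotated at chr10:53273443-53379947 on the minus strand, and Gm47644 is annotated on the minus strand within Pln at chr10:53337753-53345085. In the table Pln has the locus chr10:53278081-53379851, the same as Gm9766, an older symbol of Cep85l in RefSeq, and Gm19395. The Smart-Seq2 protocol does not mark the strand, so reads from overlapping transcripts of both strands cannot be told apart except where splicing or position separates them. The values of the other entries were low. Gm9766 had 2.95 FPKM in WT and 2.76 in KD, a log2 ratio of -0.10, and Gm19395 was listed at 0 in both groups. Gm47644 is not analysed here.

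The promoter window of Pln is shown because Pln was the only member past 1.5-fold, and that of Slc8a1 because it is the other member whose window held a match to one of the motifs searched while its ratio lay below 1. Both windows are from RefSeq on GRCm38.p6, run 5′ to 3′ along the gene from 250 bases before to 50 bases after its start, and carry the match in capitals. The Pln window is chr10:53337436-53337735 on the plus strand and the Slc8a1 window is chr17:81738338-81738637 on the minus strand.
Pln: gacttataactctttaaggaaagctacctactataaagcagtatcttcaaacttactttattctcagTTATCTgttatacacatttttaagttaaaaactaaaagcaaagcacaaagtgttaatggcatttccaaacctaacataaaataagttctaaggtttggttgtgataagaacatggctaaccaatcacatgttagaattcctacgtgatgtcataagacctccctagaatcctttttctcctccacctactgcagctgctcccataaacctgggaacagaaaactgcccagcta
Slc8a1: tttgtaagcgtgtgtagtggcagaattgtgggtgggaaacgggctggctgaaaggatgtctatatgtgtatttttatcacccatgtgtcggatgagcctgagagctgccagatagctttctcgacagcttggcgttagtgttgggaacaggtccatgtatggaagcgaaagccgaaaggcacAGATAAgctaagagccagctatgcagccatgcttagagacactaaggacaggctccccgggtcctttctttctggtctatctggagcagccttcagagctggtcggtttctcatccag

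The motifs, each searched on both strands, were AGGTGTNA for T-box factors, TNAAGTG for NKX2-5, AGATAA for GATA factors and the palindromic core of the MEF2 motif. Of the 10 members, 6 had a window in the table (Pln, Ryr2, Slc8a1, Cacna1c, Casq2 and Jph2), with 9 windows in all because Cacna1c and Jph2 have several starts. The GATA letters were found in the Pln window, on the strand opposite to the gene at bases 68 to 73, and in the Slc8a1 window, on the strand of the gene at bases 183 to 188, that is in 2 of the 9 windows. The same letters were in 11.2% of all 32851 windows of this length. The T-box letters were in 0 of the 9 windows (3.03% of all windows), as were the NKX2-5 letters (11.5%) and the MEF2 letters (3.69%). A match is a description of letters and not a bound site, and the 2 genes with the GATA letters had ratios on opposite sides of 1.

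Atp2a2 encodes SERCA2, the pump that refills the cardiac reticulum and the target of phospholamban. It lies at chr5:122453513-122502225 on the minus strand. It had 92.6 FPKM in WT and 81.3 in KD, a log2 ratio of -0.19, which is 12.3% lower. With Pln higher and Atp2a2 lower, the ratio of Pln to Atp2a2 FPKM was 1.13 in WT and 2.25 in KD, a change of 2.003-fold. With the Gm9766 and Gm19395 entries added to Pln the change was 1.98-fold. This is a ratio of RNA levels and says nothing of the proteins or of their phosphorylation.

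Sln encodes sarcolipin, another small brake of the pump, which in the mature mouse heart is a gene of the atria. It lies at chr9:53850164-53854560 on the plus strand. It was listed at 0 in both groups, and Cuffdiff marked it as having too few alignments to test. A 0 in this table is not always a measured absence, since the cardiac actin gene Actc1 was also listed at 0 in both groups. Actc1 differs from Sln in that it was 1 of 2 genes marked as having too many reads. Of 83 ribosomal protein genes, 1 was also listed at 0 in both groups, and whether its RNA was truly absent was not checked. No ratio to Atp2a2 can be given for Sln.

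Ryr2 encodes the cardiac ryanodine receptor, the release channel. It lies at chr13:11553102-12106945 on the minus strand. It had 4.42 FPKM in WT and 4.12 in KD, a log2 ratio of -0.10, the smallest difference among the members above 0. Cacna1c encodes the pore of the L-type channel through which the triggering calcium enters. It lies at chr6:118587240-119196418 on the minus strand. It had 3.004 FPKM in WT and 2.50 in KD, a log2 ratio of -0.27, the lowest of the members. In the table it shares its locus with Dcp1b, at 8.48 and 8.41 FPKM, and with 4931430N09Rik, at 0.863 and 0.492 FPKM, so its value is less certain. Slc8a1 encodes NCX1, the sodium-calcium exchanger of the surface membrane. It lies at chr17:81373105-81738377 on the minus strand. It had 21.2 FPKM in WT and 17.9 in KD, a log2 ratio of -0.25. Ryr2, Cacna1c, Slc8a1 and Atp2a2, the 4 members with a ratio below 1, were 6.82% to 16.9% lower in KD. Of the 11001 genes, 50.5% were higher in KD and nearly all others lower. None of the 4 was lower by 20% or more, as 8.19% of the 11001 genes were, and the ratio of Cacna1c was the 1292nd from the bottom.

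Asph, Jph2, Trdn and Casq2 had a higher value in KD within 1.5-fold, where 50.5% of the 11001 genes had a higher value. Asph gives rise to junctin, which anchors calsequestrin near the release channel, and also to an aspartyl hydroxylase, and a value for the whole gene does not separate these products. It lies at chr4:9448069-9669344 on the minus strand. It had 25.8 FPKM in WT and 30.8 in KD, a log2 ratio of 0.26. In the table Asph shares its locus with Clvs1, which had 0.914 FPKM in WT and 1.06 in KD. Jph2 encodes junctophilin 2, which bridges the reticulum and the surface membrane, and lies at chr2:163336242-163397993 on the minus strand. It had 14.1 FPKM in WT and 15.8 in KD, a log2 ratio of 0.17. Trdn encodes triadin, which links calsequestrin to the ryanodine receptor, and lies at chr10:33080554-33476709 on the plus strand. It had 10.6 FPKM in WT and 11.8 in KD, a log2 ratio of 0.15, and shares its locus with D830005E20Rik, which stayed below 0.1 FPKM in both groups. Casq2 encodes cardiac calsequestrin, the calcium buffer of the store, and lies at chr3:102086415-102146514 on the plus strand. It had the lowest level above 0, with 1.29 FPKM in WT and 1.69 in KD, a log2 ratio of 0.39. Of the members, 2 (Casq2 and Pln) were higher by 25% or more, as were 10.4% of the 11001 genes. With a pseudocount of 1 FPKM the log2 ratio of Casq2 was 0.23.

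**Figure D2:**
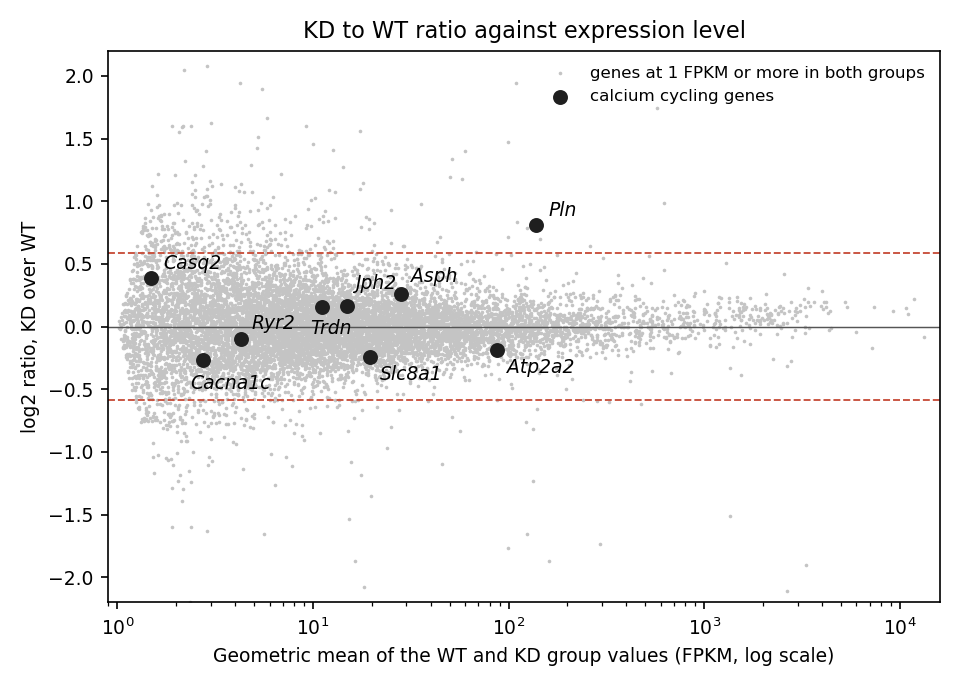
The log2 ratio of KD over WT against the geometric mean of the group values in FPKM (log axis) for genes with at least 1 FPKM in both groups in grey and for the calcium cycling genes in black, with dashed lines at 1.5-fold; 6 genes lie outside the vertical axis. Pln, at a log2 ratio of 0.81, lies above the dashed line among genes of high level, and the other 8 members lie between -0.27 and 0.39 within the grey cloud.

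The ratio of Slc8a1 to Atp2a2 was 0.229 in WT and 0.220 in KD, so the exchanger and the pump stood in nearly the same proportion in both groups.

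In the 4 members lower in KD the longest coding transcript ran from 4486 to 18464 bases. In the 5 members higher in KD it ran from 2334 to 6694 bases. The ranges overlapped only through Atp2a2, at 4486 bases. Ryr2, Slc8a1 and Cacna1c, at 16814, 18464 and 13162 bases, were longer than every member higher in KD. Over the 9663 genes with a length, 87.8% of those that passed, cut into 10 bins of equal size by length, the median log2 ratio was 0.07 in the bin of the shortest and -0.06 in that of the longest transcripts. With the median of its length bin subtracted, Ryr2 had a log2 ratio of -0.05, Cacna1c -0.21, Slc8a1 -0.19, Atp2a2 -0.15, Asph 0.31 and Pln 0.82. All 9 members kept their sign.

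Of 6 members that were set beside their paralogues, 4 had the highest value of their family in both groups. Atp2a2 held 98.2% of the summed FPKM of the SERCA pumps in WT and 96.9% in KD, Ryr2 held 97.2% and 96.1% of the ryanodine receptors, Slc8a1 held 99.2% and 99.7% of the exchangers and Jph2 held 94.4% and 94.8% of the junctophilins. Of the voltage-gated pore genes, only Cacna1c, Cacna1d, Cacna1s, Cacna1g and Cacna1h were summed. Cacna1c held less, with 31.9% in WT and 25.9% in KD. Cacna1h, the pore of a T-type channel, was higher than it in both groups, at 5.002 FPKM in WT and 5.68 in KD.

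Casq2 did not have the highest value of its family either. Casq1, the calsequestrin named for skeletal muscle, stood at 143 FPKM in WT and 148 in KD, 111 and 87.7 times the level of Casq2. Casq2 thus held 0.894% of the calsequestrin FPKM in WT and 1.13% in KD. The other genes of the skeletal muscle list were low or at 0. Ryr1, the release channel of that tissue, had 0.0436 FPKM in WT and 0.0217 in KD, and 6 of the 9 listed genes were listed at 0 in both groups. Casq1 shares its locus in the table with no other gene, although Gm17224 is annotated inside it on the other strand. Casq1 was picked out after its values were seen.

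**Figure D3:**
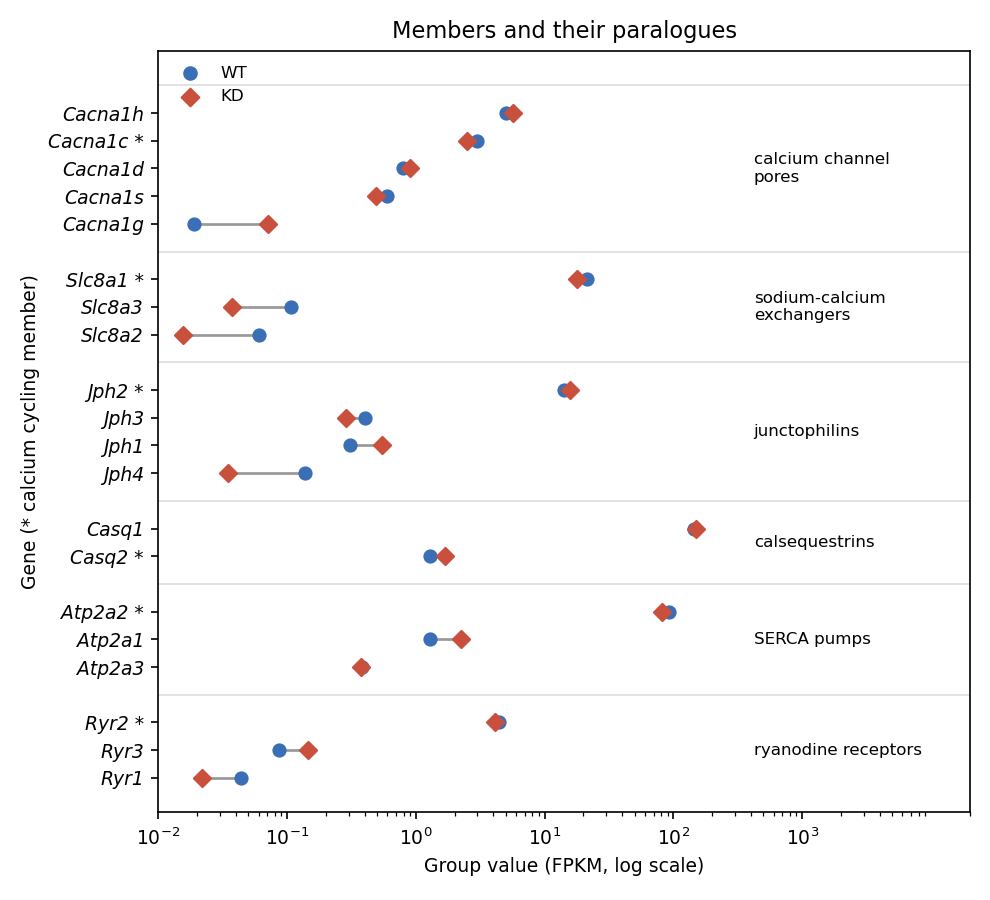
Group values in FPKM on a log axis for 6 members, marked with an asterisk, and the other genes of their families, with a circle for WT and a diamond for KD. Atp2a2, Ryr2, Slc8a1 and Jph2 lead their families in both groups, while Casq1 lies far above Casq2 and Cacna1h lies above Cacna1c.

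The wider calcium handling machinery was described with 5 lists chosen by known function, which hold 123 genes, of which 120 were matched to the table, 8 of them by an older symbol. In all, 94 of the genes reached 1 FPKM in both groups, 53 higher and 41 lower in KD, with a median log2 ratio of 0.03. Of these, 2 were higher and 1 lower by 1.5-fold or more, 3 of 94 beside 5.01% of all genes. With a pseudocount of 1 FPKM and no filter, 0 of 120 were higher and 3 lower by that much. The median of every list lay between 0.01 and 0.04.

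The list of release, junction and luminal genes had 20 of 26 genes above the level, 11 higher and 9 lower, with 0 past 1.5-fold. Its highest gene was Fkbp1a, which encodes a protein that binds ryanodine receptors, with 1121 FPKM in WT and 1011 in KD. Bin1, a membrane-shaping gene of the T-tubules, lay just inside the threshold with 7.08 FPKM in WT and 10.6 in KD, a ratio of 1.49, and its entry overlaps that of A830052D11Rik. The inositol trisphosphate receptor genes Itpr1 and Itpr2 had log2 ratios of -0.04 and 0.01.

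The list of pump regulators and luminal calcium binding proteins had 18 genes above the level, 10 higher and 8 lower. Its highest gene was Ppp1ca, a catalytic subunit of the phosphatase that acts on phospholamban, with 655 FPKM in WT and 658 in KD. Atp2a1, the pump of fast skeletal muscle, was past the threshold, with 1.28 FPKM in WT and 2.23 in KD, a log2 ratio of 0.80. Its entry overlaps that of Rabep2, and its level is close to the limit of 1 FPKM. Calr and Hspa5, abundant chaperones of the lumen, had log2 ratios of 0.06 and 0.00.

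The list of surface channels, pumps and their regulators had 20 of 33 genes above the level, 11 higher and 9 lower. Its highest gene was Rrad, a small GTPase gene that restrains the L-type channel, with 180 FPKM in WT and 172 in KD. Gem, of the same GTPase family, was lower in KD, with 11.6 FPKM in WT and 6.71 in KD, a log2 ratio of -0.79. Cacnb3, a beta subunit gene of the channel, was higher, with 1.73 FPKM in WT and 2.62 in KD, a log2 ratio of 0.60. Its ratio of 1.51 lay just past the threshold, and its level is close to the limit of 1 FPKM. Fxyd1 encodes phospholemman, which acts on the sodium pump much as phospholamban acts on SERCA, and had 108 FPKM in WT and 153 in KD, a log2 ratio of 0.50 that is below the threshold.

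The mitochondrial list had all 12 genes above the level, 7 higher and 5 lower, with 0 past 1.5-fold, and was led by Vdac1, a channel gene of the outer membrane, with 454 FPKM in WT and 443 in KD. The list of kinases, phosphatases and cyclic AMP signalling had 24 of 28 genes above the level, 14 higher and 10 lower, with 0 past 1.5-fold. It was led by Gnas, the stimulatory G protein gene, with 328 FPKM in WT and 379 in KD. Camk2d, the main cardiac calmodulin kinase gene, which phosphorylates phospholamban and the release channel, had a log2 ratio of 0.17, and Prkaca, a catalytic subunit gene of protein kinase A, had 0.08.

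**Figure D4:**
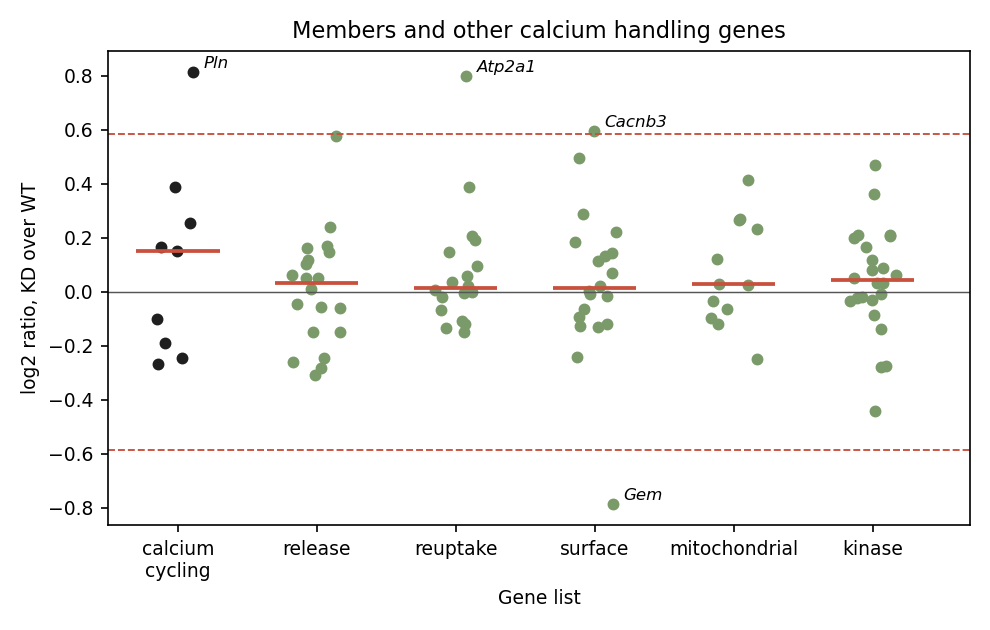
The log2 ratio of KD over WT for each calcium cycling gene and for the genes of 5 further lists (release and junction, pump regulation and lumen, surface, mitochondrial, kinase and phosphatase) with at least 1 FPKM in both groups, with a red bar at the median of a list and dashed lines at 1.5-fold. Pln, Atp2a1 and Cacnb3 lie above the upper line and Gem below the lower one, and the medians of the 5 further lists lie between 0.01 and 0.04.

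Markers of the cells that a ventricle sample can hold were set beside these values. The myocardial list had 21 of 22 genes above the level, 8 higher and 13 lower in KD, with a median log2 ratio of -0.03 and a range from -0.59 to 0.22, so Pln, Casq2 and Asph lay above the range of these genes and the other 6 members above 0 lay within it. Ankrd1 alone set the lower end. Without it the lowest gene was Myh6 at -0.245, and Slc8a1 at -0.246 and Cacna1c at -0.267 lay below the range. Casq2, at 1.29 FPKM in WT and 1.69 in KD, is close to the limit of 1 FPKM. With a pseudocount of 1 FPKM its log2 ratio was 0.23, near the upper end of the range. Against the median of the myocardial list the log2 ratio of Pln was 0.84. The endocardial list had a median of 0.11 over 9 genes. The epicardial list had a median of 1.10, with 5 of 5 genes higher in KD, 4 of them past 1.5-fold (Tcf21, Upk3b, Upk1b and Tbx18), and its summed level went from 47.3 FPKM in WT to 96.8 FPKM in KD. The sum over the epicardial list was thus higher by 49.5 FPKM. This sum depends on which markers were listed and does not measure a part in the value of Pln. The smooth muscle list, whose cells also use phospholamban, had a median of -0.33 over 4 genes, 1 higher and 3 lower. Its summed level went from 3674 to 2957 FPKM, most of it Acta2, at 3045 FPKM in WT and 2512 in KD. Its 1 gene past 1.5-fold was Tagln, at 400.3 FPKM in WT and 263.2 in KD. Myh11 of this list was below the level, at 0.258 FPKM in WT and 0.0402 in KD. Whether these genes stand for smooth muscle cells in this tissue was not tested. The neural list had 1 of 7 genes above the level, Tubb3, at 12.2 FPKM in WT and 26.9 in KD. Elavl4 of this list went the other way, with 1.38 FPKM in WT and 0.773 in KD, below the level. The median was 0.10 over 6 ventricular genes, 0.21 over 8 erythroid genes and -0.19 over 3 conduction genes, Tbx18 among them, and the hepatic list had 1 gene above the level, at 0.33. The atrial list had 6 genes above the level, 2 higher and 4 lower (Kcna5, Tbx5, Bmp10 and Myl7), with a median of -0.11. The summed level of this list, most of it Myl7, went from 13685 to 12949.9 FPKM. Myl7 is also on the myocardial list and Tbx5 is also expressed in the ventricles, so this median and sum do not measure atrial cells. Of the atrial list, 1 gene was past 1.5-fold, Nr2f2, at 2.01 FPKM in WT and 4.15 in KD, and Sln was listed at 0. Below the level in WT, Nr2f1 had 0.552 FPKM in WT and 1.07 in KD, and Vsnl1 0.555 and 1.14. Hcn4, a pacemaker channel gene, had 3.57 FPKM in WT and 2.89 in KD. The part of other cell types in the value of Pln was not tested.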

How the data were processed

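RNA-seq libraries of 3 WT and 3 KD ventricles were single-end and prepared by Smart-Seq2 with 12 cycles of preamplification and 9 of enrichment PCR. Per the submitters' processing notes, TopHat, Bowtie2 and Cuffdiff were used with build mm10, and versions are not given in the sources used here. The authors deposited 1 Cuffdiff table that gives each gene 1 FPKM value in WT and 1 in KD, the latter under the name KO. Its columns of fold change, test statistic, p-value and q-value are the authors' own comparison and were not used. It has no column of single embryos, and 0 per-sample columns stayed unused, so no test was made here, and the depth of the libraries is unknown.

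Ratios were taken between group values without a pseudocount, over genes with at least 1 FPKM in both groups, and 1.5-fold in either direction was counted. Table starts were raised by 1, after 5796 genes with an unshared locus matched GENCODE M21 starts with 1 added and 623 without. Promoter windows came from RefSeq. The members and lists were chosen with earlier results of these data known. Named were all members, genes sharing their loci and genes of the calcium lists past 1.5-fold. So were the highest gene of each calcium list and fixed tissue markers. The others were chosen after their values were seen. These were marker list genes past 1.5-fold, with Nr2f1, Vsnl1, Elavl4 and Myh11 included. The rest were Acta2, Kcna5, Bmp10, Bin1, Fxyd1, Casq1, Calr, Hspa5, Itpr1, Itpr2, Camk2d, Prkaca, Ryr1 and Cacna1h. Alternatives changed the threshold, pseudocount, filter, centring and shared loci. Of the steps, only the ratio and the count past 1.5-fold were tested on simulated data. Python 3.11.15, NumPy 2.4.6, pandas 2.3.3 and Matplotlib 3.10.9 were used.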

Additional observations from a re-analysis of the deposited data

How the results depend on the processing

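No paired analysis was possible because only group values are given, and leaving out each replicate was not run for the same reason. The 1 member past 1.5-fold became 2 at a threshold of 25% higher or 20% lower, 0 at 2-fold and 0 without members whose locus is shared, which leaves out Pln by construction; the other 8 alternatives, 1 of them chosen after seeing the data, gave 1. The 3 other calcium genes (2 higher, 1 lower) became 10 at a threshold of 25% higher or 20% lower and 0 at 2-fold. With a pseudocount they were 2 (1 higher, 1 lower) at 0.1 FPKM and 1 at 1 FPKM. With at least 10 FPKM in both groups they were 0 of 52. They were 4 (3 higher, 1 lower) less the myocardial median, but 0 higher and 3 lower with a pseudocount of 1 FPKM both of 97 genes at 1 FPKM in either group and of 120 genes with no filter. The median of the members, 0.15, was 0.14 with a pseudocount of 1 FPKM, 0.16 with at least 10 FPKM in both groups, 0.18 less the myocardial median, -0.10 without members whose locus is shared and, under alternatives chosen after seeing the data, 0.19 less the median of the bin of transcript length and 0.026 without Pln. The Pln to Atp2a2 change went from 2.003-fold to 1.98-fold with the genes sharing the locus of Pln. Pln kept a log2 ratio from 0.81 to 0.84. The unknown depth limits most what can be said of Casq2 and Cacna1c, the members with the lowest values above 0.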
